A study of Mus musculus with 6 samples.

Results

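The genes described here are 9 genes of MHC class II antigen presentation, Cd74, Ctss, H2-Aa, H2-Ab1, H2-Eb1, H2-DMa, H2-DMb1, H2-DMb2 and Ciita, on an array where 19938 genes had a probe set of their own, 7 of these 9 among them. They were taken by gene symbol, with the brightest probe set per gene over the 6 arrays, and each had 1 probe set. H2-DMb1 and H2-DMb2 were measured by 1 probe set annotated to both genes, so the 9 genes gave 8 series of values and the signal of that probe set cannot be assigned to either gene. The genes were chosen with results of the comparison of Lxn-/- with WT on these 6 arrays known, and count as selected on those log2 values, so their differences between the genotypes are given as a description, without a test.

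RNA came from LT-HSCs (long-term hematopoietic stem cells), the bone marrow cells that maintain blood formation, of Lxn-/- mice and of WT mice, with 3 pools per genotype and 1 Affymetrix mouse Gene ST array per pool. Lxn-/- mice lacked exons 2 to 4 of the latexin gene and the latexin protein, and WT mice had both intact. All animals were females of the C57BL/6 background aged 8 to 12 weeks, and each pool held about 100000 cells from 10 to 20 mice. Cells had been sorted as Lin-, Sca1+, c-Kit+, CD34- and negative for a marker the labels spell Flt2. The deposited values are on the log2 scale after the authors' RMA (robust multi-array average) step. SDs over 3 arrays measure the spread between pools. Each SE of a difference comes from limma, which also draws on the variance of all tested probe sets.

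MHC class II molecules are pairs of an alpha and a beta chain that present peptides from endosomes to CD4+ T cells. The invariant chain, encoded by Cd74, guides newly made pairs to endosomes and blocks their groove. Cathepsin S trims the invariant chain to a short peptide, and the H2-DM heterodimer exchanges that peptide for antigen. The coactivator CIITA, recruited to the X and Y boxes of their promoters, switches class II genes on. B cells, dendritic cells and macrophages are the best known carriers of class II, and stem and progenitor cells of mouse marrow also express it.

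All 8 probe sets lay above 6.93 on all 6 arrays, a background level set at the 95th percentile of 1205 probe sets for receptors of odorants and pheromones. The signal of Lxn, the deleted gene, was 8.66, 8.78 and 8.78 in the Lxn-/- pools, against 8.99, 9.09 and 9.55 in the WT pools (difference -0.47, SE 0.14; limma adjusted p = 0.993), and the position of its probes relative to the deleted exons is not known here. Over all 23410 probe sets with a gene symbol, 0 (0.0%) passed an adjusted p of 0.05 in limma and 914 had an unadjusted p under 0.05, 2.43% of all lower in Lxn-/- and 1.47% higher. The 12 measured markers of LT-HSCs, among them Procr and Kit, were above the background level on all 6 arrays. So were 14 of 16 B cell markers and 10 of 10 plasma cell markers. Markers of other cell types were too, with 7 of 7 erythroid, 11 of 12 monocyte and macrophage, 8 of 10 neutrophil and 8 of 11 T and NK cell markers. By mean over the 6 arrays, 16324 of all 23410 tested probe sets lay at or above this level. The counts are therefore not read as a sign of any cell type. The sort had removed lineage-positive cells.

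Only Cd74 and Ctss, of the 8 probe sets, had lower values in all Lxn-/- pools than in any WT pool. The 3 class II chains, H2-DMa, the H2-DMb probe set and Ciita had mean differences within 0.1 log2 units of 0, and their values overlapped between genotypes. In all, 6 of 8 probe sets had a mean difference below 0, where 54.5% of all tested probe sets did, and 2 of 8 had Lxn-/- values wholly below WT, where 5.38% did. The median difference of the 8 was -0.07, against -0.01 over all tested probe sets. Nothing is read from these shares, because the choice of genes used the same comparison. In bulk RNA of this kind, fewer cells of a type and less RNA per cell cannot be told apart.

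Cd74 had values of 11.92, 12.09 and 12.00 in the Lxn-/- pools, against 12.45, 12.23 and 12.55 in the WT pools. The groups did not overlap, and WT replicate 2 was nearest to the Lxn-/- pools. The means were 12.00 ± 0.08 in Lxn-/- and 12.41 ± 0.17 in WT (SD, n = 3 each), a difference of -0.41 (SE 0.10) or 1.32-fold. Of all tested probe sets, 0.474% had a lower difference, a description only, because the choice of genes used the same comparison.

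Ctss, which encodes the cathepsin that trims the invariant chain, had values of 10.34, 10.15 and 10.07 in the Lxn-/- pools and 10.88, 10.44 and 10.69 in the WT pools. Again there was no overlap, and WT replicate 2 was the lowest WT pool. The means were 10.19 ± 0.14 in Lxn-/- and 10.67 ± 0.22 in WT (SD, n = 3 each), a difference of -0.49 (SE 0.12) or 1.40-fold. Of all tested probe sets, 0.265% had a lower difference, which is again a description only. When single arrays were left out, the difference ran from -0.50 to -0.33 for Cd74 and from -0.60 to -0.38 for Ctss. Its sign could not change there, because the groups did not overlap.

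**Figure D1:**
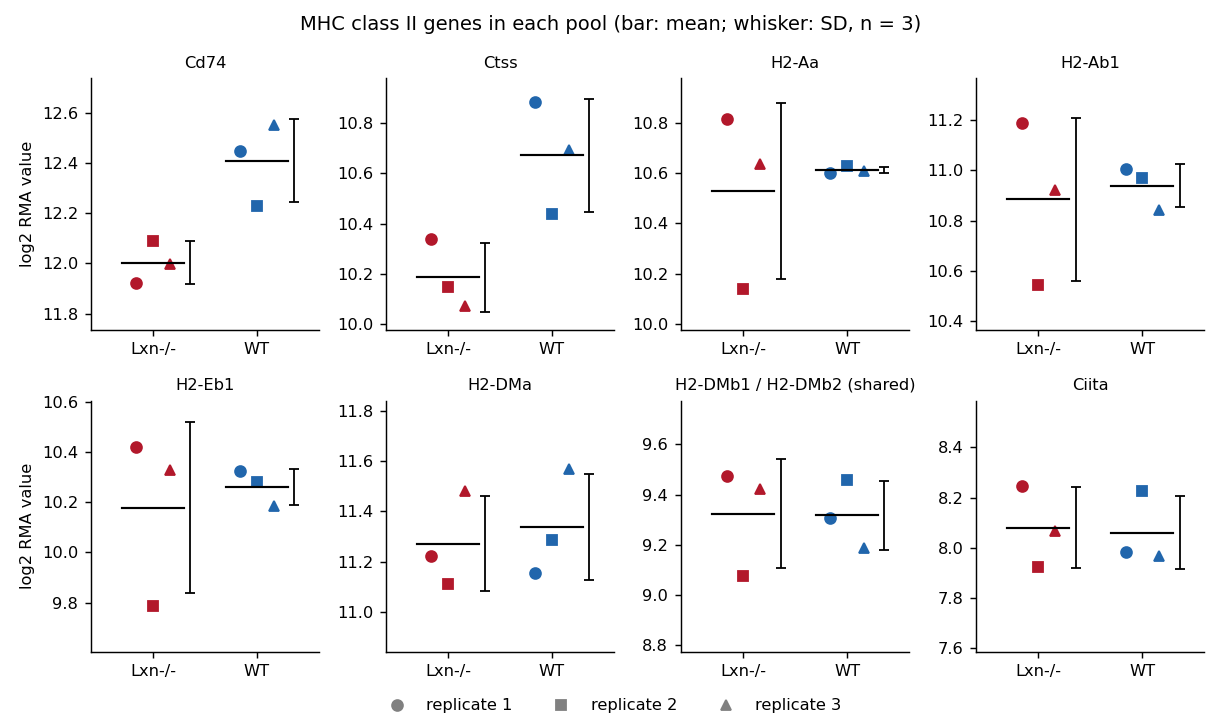
Log2 RMA values of the 8 probe sets (vertical axes, each spanning 1 log2 unit) in the 3 Lxn-/- pools (red) and the 3 WT pools (blue), with symbols for the replicate numbers, bars for means and whiskers for SD (n = 3). Cd74 and Ctss show no overlap between genotypes, and Lxn-/- replicate 2 is the lowest point for H2-Aa, H2-Ab1 and H2-Eb1.

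H2-Aa, the alpha chain of the class II molecule H2-A, had values of 10.82, 10.14 and 10.64 in the Lxn-/- pools, against 10.60, 10.63 and 10.61 in the WT pools. The Lxn-/- values lay on both sides of the WT values, which were nearly equal. The SD was 0.35 in Lxn-/- and 0.014 in WT, and the difference was -0.08 (SE 0.16).

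H2-Ab1, the beta chain of the same molecule, had values of 11.19, 10.54 and 10.92 in Lxn-/- and 11.01, 10.97 and 10.84 in WT. H2-Eb1, the beta chain of the molecule H2-E, had 10.42, 9.79 and 10.33 in Lxn-/- and 10.32, 10.28 and 10.18 in WT. For both genes Lxn-/- replicate 1 was the highest of the 6 pools and replicate 2 the lowest, as for H2-Aa. The differences were -0.05 (SE 0.15) for H2-Ab1 and -0.08 (SE 0.15) for H2-Eb1.

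The sign of these differences rested on Lxn-/- replicate 2. Without it the difference was 0.11 for H2-Aa, 0.12 for H2-Ab1 and 0.11 for H2-Eb1, and without Lxn-/- replicate 1 it was -0.23, -0.21 and -0.20. The pooled SD of these genes was 0.25, 0.24 and 0.25, against a median of 0.10 over all tested probe sets. Of all tested probe sets, 94.5%, 93.8% and 94.4% had a smaller one. The spread was wide in Lxn-/- only, with an SD of 0.35, 0.33 and 0.34, against 0.014, 0.087 and 0.072 in WT. The share with a smaller pooled SD was 68.6% for Cd74, 87.02% for Ctss, 89.7% for H2-DMa, 86.2% for the H2-DMb probe set and 78.5% for Ciita.

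**Figure D2:**
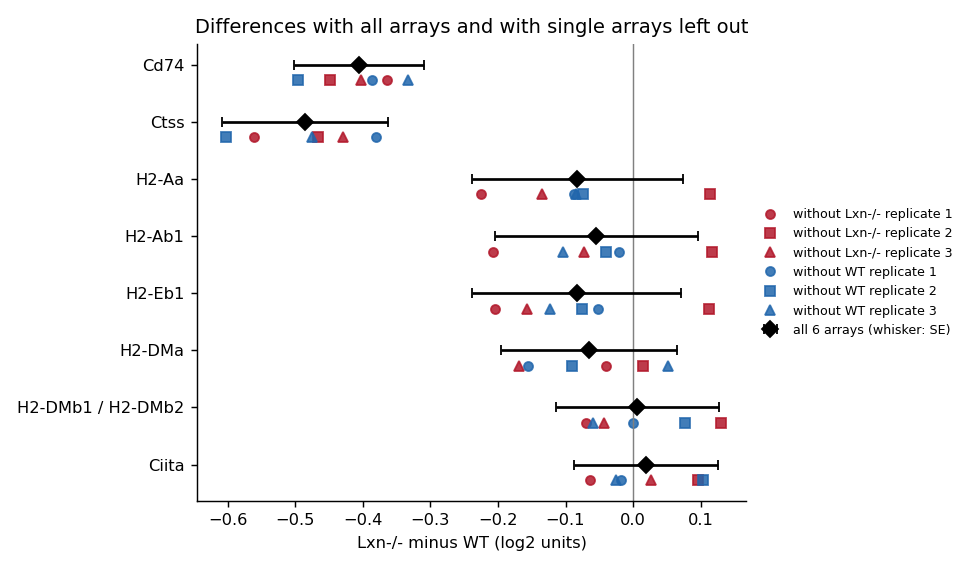
Lxn-/- minus WT in log2 units for each of the 8 probe sets, with all 6 arrays (diamonds, whiskers for the limma SE) and with each array left out in turn (small symbols, red for a left-out Lxn-/- array and blue for a left-out WT array). Cd74 and Ctss stay between -0.60 and -0.33, where their sign cannot change because the genotypes do not overlap. The class II chains turn positive without Lxn-/- replicate 2.

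H2-Ea, the alpha partner of H2-Eb1, is annotated by RefSeq as a transcribed pseudogene in C57BL/6J, a strain known to lack H2-E at the cell surface. Its values were 5.87, 5.92 and 5.92 in Lxn-/- and 5.89, 5.75 and 5.94 in WT. All 6 lay below the background level, beside signals of H2-Eb1 above it on all 6 arrays.

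Promoter windows are shown for H2-Eb1 and H2-Aa, whose high correlation over the 6 arrays rested largely on Lxn-/- replicates 1 and 2. They are also shown for H2-DMb1 and H2-DMb2, which share 1 probe set and have no value of their own. Ctss, whose correlation with the chains was low, is shown as well. RefSeq (GRCm38.p6) gave a promoter for 6 of the 9 genes, and none for Cd74, H2-Ab1 and Ciita. The bases from 140 to 1 before the start site are printed 5′ to 3′ on the strand of the gene. Capitals mark matches to AACNGATGA, the core of the X box, to TGACGTCA, the cAMP response element, to GATTGG, the core of the Y box, and to an interferon-stimulated response element, written as GAAA and GAAA parted by any 2 bases, each searched on both strands. The motifs were chosen with these sequences in view. The windows lie at chr17:34305727-34305866 (plus strand) for H2-Eb1, chr17:34153051-34153190 (plus) for H2-DMb1, chr17:34145109-34145248 (plus) for H2-DMb2, chr17:34287824-34287963 (minus) for H2-Aa and chr3:95526646-95526785 (plus) for Ctss.
H2-Eb1: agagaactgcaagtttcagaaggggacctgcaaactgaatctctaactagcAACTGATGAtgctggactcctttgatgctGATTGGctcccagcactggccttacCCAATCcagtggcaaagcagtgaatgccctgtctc
H2-DMb1: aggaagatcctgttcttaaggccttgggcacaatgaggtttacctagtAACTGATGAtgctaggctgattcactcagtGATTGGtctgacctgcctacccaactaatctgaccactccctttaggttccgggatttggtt
H2-DMb2: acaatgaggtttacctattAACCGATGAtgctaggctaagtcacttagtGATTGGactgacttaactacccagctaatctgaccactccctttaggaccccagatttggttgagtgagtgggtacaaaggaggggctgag
H2-Aa: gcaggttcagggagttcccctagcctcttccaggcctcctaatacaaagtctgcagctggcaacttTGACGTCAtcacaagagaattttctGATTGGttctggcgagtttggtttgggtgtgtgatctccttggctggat
Ctss: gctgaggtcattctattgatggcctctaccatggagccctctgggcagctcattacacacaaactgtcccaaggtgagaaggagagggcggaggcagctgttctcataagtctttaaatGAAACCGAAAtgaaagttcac

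H2-Eb1, H2-DMb1 and H2-DMb2 each held an X box core upstream of a Y box core on the same strand. Counted from the start site, the X core began at base -89 in H2-Eb1, -92 in H2-DMb1 and -121 in H2-DMb2, and the Y core at base -60, -62 and -91. H2-Aa held a cAMP response element from base -74 to base -67 and a Y core from base -49, with no match to AACNGATGA in the window. Ctss held none of these 3 motifs, and its interferon-stimulated response element ran from base -21 to base -12. Neither of the 2 windows of H2-DMa held a match in the printed stretch, though a Y core lay upstream of that stretch, from base -199.

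Among 32544 distinct promoters, the same window of 140 bases held an X core in 0.289%, a Y core in 10.5%, the cAMP response element in 1.34% and the interferon-stimulated response element in 1.48%. An X core and a Y core were found together in 9 promoters, 3 of them those of H2-Eb1, H2-DMb1 and H2-DMb2. A match is a description of letters and no measure of binding, and a window without a match may still hold a variant of the box. The promoters of H2-DMb1 and H2-DMb2 were identical at 84.6% of 247 aligned bases.

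H2-DMa, the alpha chain of the peptide exchanger H2-DM, had values of 11.22, 11.11 and 11.48 in Lxn-/- and 11.16, 11.28 and 11.57 in WT. Replicate 3 was the highest pool of each genotype, the groups overlapped, and the difference was -0.07 (SE 0.13), with the opposite sign without Lxn-/- replicate 2 (0.01) and without WT replicate 3 (0.05). The probe set shared by H2-DMb1 and H2-DMb2, which encode its beta chains, had 9.47, 9.07 and 9.42 in Lxn-/- and 9.31, 9.46 and 9.19 in WT. Its difference was 0.01 (SE 0.12), and Lxn-/- replicate 2 was again the lowest of the 6 pools.

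Ciita, the coactivator of class II genes, had values of 8.25, 7.93 and 8.07 in Lxn-/- and 7.98, 8.23 and 7.97 in WT. The highest and lowest pools were Lxn-/- replicates 1 and 2, as for the class II chains, and the difference was 0.02 (SE 0.11).

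Across the 6 arrays the class II chains had high correlations with each other and low ones with Cd74 and Ctss, a contrast that was not tested. Pearson's r was between 0.95 and 0.97 for the 3 pairs of chains, between 0.65 and 0.87 for the 6 pairs of a chain with the H2-DMb probe set or Ciita, and between -0.14 and 0.29 for the 6 pairs of a chain with Cd74 or Ctss. After each genotype's mean was removed, Cd74 had r from -0.58 to -0.48 with the chains, and Ctss from 0.22 to 0.34. H2-DMa gave r between -0.04 and 0.38 with the 7 other probe sets, genotype means kept. All 28 pairs were computed, and they are given as a description with no p, because the genes count as selected on these values.

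The pair of H2-Ab1 and H2-Eb1 had r = 0.96 and Spearman's rho = 0.83. Without Lxn-/- replicates 1 and 2, the pools farthest from the median of H2-Ab1, r was 0.80. For H2-Aa and H2-Ab1, r was 0.95 and rho 0.60, and r was -0.013 without the same pools, so that relation rested on them. H2-Aa and H2-Eb1 gave r = 0.97, rho = 0.83 and r = 0.36 without those pools.

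The H2-DMb probe set and Ciita ranked the 6 pools in the same order (rho = 1), with r = 0.89, and without Lxn-/- replicate 2 and WT replicate 3 their r was 0.92. Cd74 and Ctss gave r = 0.85 and rho = 0.77. Both genes were lower in all Lxn-/- pools, and after each genotype's mean was removed, with all 6 pools kept, their r was 0.40. Without WT replicates 1 and 3, and with the genotype means kept, r was 0.41 over the 4 other pools. Within a genotype there were 3 pools, too few for a correlation.

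**Figure D3:**
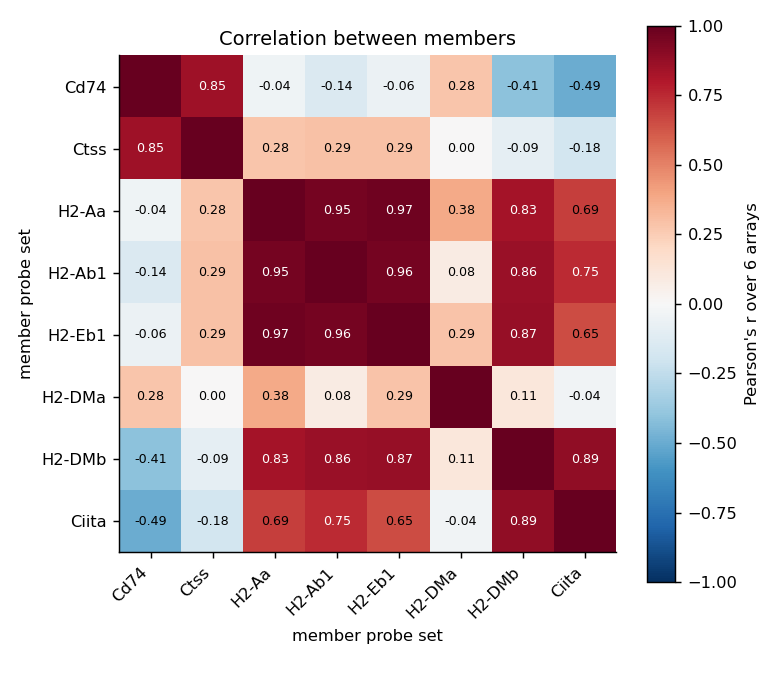
Pearson's r over 6 arrays for each pair of the 8 probe sets (rows and columns, colour scale from -1 to 1; the diagonal is each probe set with itself). H2-Aa, H2-Ab1 and H2-Eb1 reach 0.95 to 0.97 with each other and lie between -0.14 and 0.29 with Cd74 and Ctss.

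Among 13 genes of class II loading and processing, 10 had a difference below 0 and 0 passed the test, with a median of -0.05 against -0.01 over all genes with an own probe set. Of all those genes, 56.0% had a difference below 0, a share that stands beside the counts of all 5 pathway lists. Ifi30, the lysosomal thiol reductase that opens disulfide bonds of antigens, had 10.28, 10.32 and 10.07 in Lxn-/- and 10.53, 10.28 and 10.57 in WT. The difference was -0.24 (SE 0.10; limma adjusted p = 0.993), with overlap at WT replicate 2. H2-Eb2, a class II beta chain relative, differed by -0.15 (SE 0.10) and the cathepsin gene Ctsz by -0.10 (SE 0.084). H2-Oa and H2-Ob, the chains of H2-O, which inhibits H2-DM, differed by -0.07 (SE 0.10) and -0.05 (SE 0.11).

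Of 9 genes of costimulation and surface turnover, 6 had a difference below 0 and 0 passed the test, with a median of -0.02. The costimulatory receptor gene Cd40 differed by -0.21 (SE 0.11), Pdcd1lg2, which encodes the inhibitory ligand PD-L2, by -0.14 (SE 0.084), and Icosl, the ligand of ICOS, by 0.14 (SE 0.076).

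Of 14 regulators of class II transcription, 8 had a difference below 0 and 0 passed the test, with a median of -0.01. At an unadjusted p under 0.05 there were 2, both lower, where 2.43% of all tested probe sets were lower at that level. Irf4, a transcription factor of B cells, plasma cells and dendritic cells, had 9.76, 9.62 and 9.50 in Lxn-/- and 10.74, 10.04 and 10.10 in WT (difference -0.67, SE 0.18; limma unadjusted p = 0.00591, adjusted p = 0.993). Prdm1, which encodes the plasma cell factor BLIMP1, a repressor of Ciita, had 8.77, 9.03 and 8.68 in Lxn-/- and 9.90, 9.17 and 9.19 in WT (difference -0.59, SE 0.20; limma unadjusted p = 0.0164, adjusted p = 0.993).

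For both factors all Lxn-/- pools lay below all WT pools, and WT replicate 1 was the highest. Nfyb, with a difference of -0.07 (SE 0.062), was also lower in all Lxn-/- pools than in any WT pool. In all, 3 of the 14 regulators had Lxn-/- values wholly below WT, where 5.38% of all tested probe sets did. The list was chosen with earlier results of these data known, so its counts are a description only. The subunits of the RFX complex, which binds the X box, differed by 0.09 (SE 0.086) for Rfx5, -0.11 (SE 0.075) for Rfxap and 0.04 (SE 0.066) for Rfxank, none past the test. Without WT replicate 2, 5 of the 14 regulators were lower instead of 8.

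Of 11 measured genes of the route from interferon gamma to Ciita, 7 had a difference below 0 and 0 passed the test, with a median of -0.02. Irf1, which acts on a Ciita promoter, differed by 0.13 (SE 0.11), the guanylate binding protein gene Gbp3 by 0.13 (SE 0.089) and Usf1, another Ciita promoter factor, by -0.15 (SE 0.10). Without Lxn-/- replicate 3 the count was 4 of 11.

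Of 16 measured genes of class I presentation, 10 had a difference below 0 and 0 passed the test, with a median of -0.02. The genes of lowest unadjusted p were H2-M3, a nonclassical class I chain, at 0.14 (SE 0.10), the proteasome activator gene Psme1 at -0.17 (SE 0.13) and Nlrc5, the coactivator of class I genes, at 0.09 (SE 0.083). Nlrc5 was covered by 19 probe sets, all with a difference above 0, from 0.06 to 0.20, and the groups did not overlap for 3 of them, where 3.6% of all tested probe sets were higher without overlap. These are repeated measures of 1 gene, and the count over its probe sets was made after the values were seen. The 2 probe sets shared by H2-K1 and H2-D1, the classical class I heavy chains, differed by -0.01 (SE 0.064) and 0.03 (SE 0.061).

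On chromosome 17, the RefSeq gene order from H2-Oa to H2-Ea holds 6 of the 9 genes, interleaved with Brd2, Psmb9, Tap1, Psmb8, Tap2 and the other class II genes. The 9 measured neighbours that are not among the genes described here had differences from -0.15 to 0.06, 5 of them below 0. The 6 described genes of the region had differences from -0.08 to 0.01. Ctss lies on chromosome 3, which also carries the deleted gene Lxn, and whether this position had a part in its values was not tested. Ciita lies on chromosome 16, away from the class II region, and Cd74 is also outside that region.

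**Figure D4:**
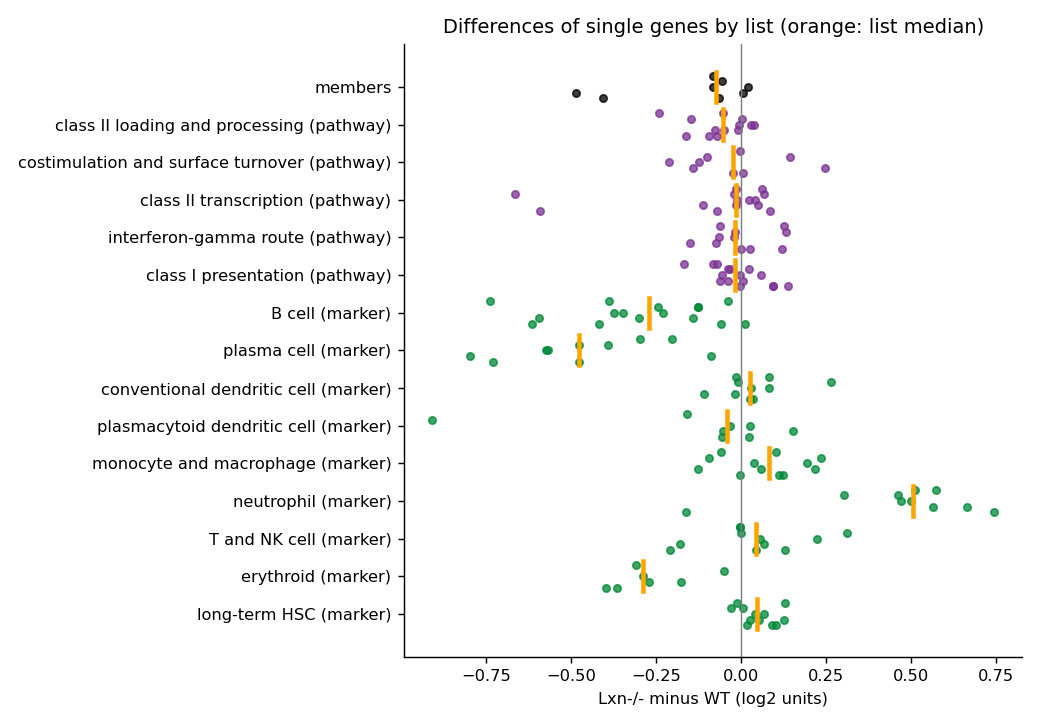
Lxn-/- minus WT in log2 units for single genes (points), grouped into the 8 probe sets described here (black), 5 lists of antigen presentation pathways (purple) and 9 lists of cell type markers (green), with orange bars for list medians. The B cell, plasma cell and erythroid medians are -0.27, -0.48 and -0.29, and the neutrophil median is 0.51. Those of the 5 pathway lists lie between -0.05 and -0.01.

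Markers of B cells and plasma cells had low mean values in the same pools as Cd74 and Ctss. Of 16 B cell markers 15 had a difference below 0, 6 at an unadjusted p under 0.05, with a median of -0.27, and of 10 plasma cell markers all 10 were below 0, 9 at that level, with a median of -0.48. Of all tested probe sets, 54.5% were below 0 and 2.43% were lower at that level. None of these markers passed the adjusted threshold. The lists were chosen with earlier results of these data known, and Cd74 and Ctss count as selected on this comparison. Nothing is therefore read from these shares. The mean log2 value of the B cell markers ran from 8.98 to 9.03 over the Lxn-/- pools and from 9.10 to 9.41 over the WT pools, and that of the plasma cell markers from 10.28 to 10.34 in Lxn-/- and from 10.61 to 10.92 in WT. Both lists had their lowest WT value in WT replicate 2, as Cd74 and Ctss did.

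Pou2af1, a B cell coactivator, differed by -0.74 (SE 0.12) and Fcrla, a B cell Fc receptor-like protein gene, by -0.60 (SE 0.14), with Cd79a of the B cell receptor at -0.61 (SE 0.23) and the B cell surface gene Ms4a1 at -0.37 (SE 0.15). Mzb1 and Sdc1 of plasma cells differed by -0.80 (SE 0.12) and -0.48 (SE 0.080). The part of these cell types in the values of Cd74 and Ctss was not tested.

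Lists of other antigen-presenting cells had medians nearer to 0. Conventional dendritic cell markers were below 0 for 4 of 10 (median 0.03), plasmacytoid dendritic cell markers for 5 of 8 (median -0.04) and monocyte and macrophage markers for 4 of 12 (median 0.08), and 0 passed the test. The defining genes Itgax, Zbtb46, Csf1r and Adgre1 differed by 0.03 (SE 0.16), -0.11 (SE 0.083), 0.13 (SE 0.15) and -0.13 (SE 0.26). Clec9a of dendritic cells differed by 0.27 (SE 0.29), and Cd68 and Fcgr1 of macrophages by 0.19 (SE 0.089) and 0.11 (SE 0.085). In the plasmacytoid list, Ly6d differed by -0.91 (SE 0.22) and Lair1 by 0.15 (SE 0.14). The dendritic count was 8 of 10 without Lxn-/- replicate 1 and 2 of 10 without WT replicate 1, and the macrophage count 7 of 12 without Lxn-/- replicate 2 and 1 of 12 without Lxn-/- replicate 3.

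Lxn-/- replicate 2, the pool with the lowest class II chains, had the highest mean of 11 T and NK cell markers, at 8.88 against 8.16 and 8.20 in the other Lxn-/- pools and 8.23 to 8.56 in the WT pools. Its mean of 10 neutrophil markers was 8.21, against 9.64 and 10.88 in the other Lxn-/- pools and 7.76 to 10.19 in the WT pools. Lxn-/- replicate 1, the pool with the highest class II chains, had the highest mean of dendritic cell markers, at 8.13 against 7.84 and 7.88 in the other Lxn-/- pools and 7.88 to 7.98 in the WT pools. The mean of 12 monocyte and macrophage markers was highest in Lxn-/- replicate 2, where the chains were lowest, at 9.34 against 9.24 and 8.79 in the other Lxn-/- pools and 8.98 to 9.13 in the WT pools. Clec9a was 8.44 in Lxn-/- replicate 1 and between 7.20 and 7.69 in the others. Whether these cells had a part in the class II values was not tested.

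**Figure D5:**
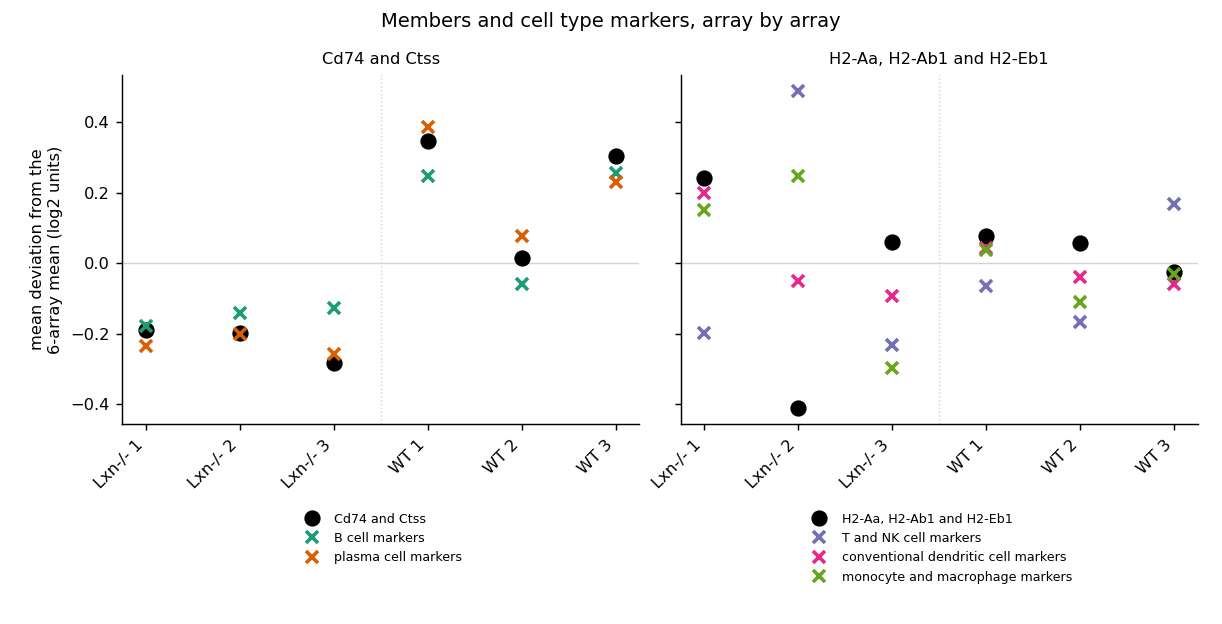
Deviation from the 6-array mean in log2 units (vertical axis) in each of the 6 pools, for the mean of Cd74 and Ctss beside B cell and plasma cell markers (left) and for the mean of H2-Aa, H2-Ab1 and H2-Eb1 beside T and NK cell, dendritic cell and macrophage markers (right). Cd74 and Ctss are below 0 in all Lxn-/- pools and lowest among WT in replicate 2, and the chains are at -0.41 in Lxn-/- replicate 2 and 0.24 in replicate 1.

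The other marker lists were described in the same way. Neutrophil markers were below 0 for 1 of 10 (median 0.51), a count that became 9 of 10 without WT replicate 3 and 7 of 10 without Lxn-/- replicate 3 (0 of 10 without Lxn-/- replicate 2, WT replicate 1 or WT replicate 2), with S100a8 at 0.75 (SE 0.76) and Cxcr2 at 0.30 (SE 0.35). T and NK cell markers were below 0 for 4 of 11 (median 0.04), for 11 of 11 without Lxn-/- replicate 2, for 1 without Lxn-/- replicate 3 and for 2 without WT replicate 3, with Cd28 at -0.21 (SE 0.070) and Klrb1c at 0.31 (SE 0.26). All 7 measured erythroid markers were below 0 (median -0.29), with Alas2 at -0.27 (SE 0.12) and Slc4a1 at -0.31 (SE 0.15). The erythroid median was -0.06 without Lxn-/- replicate 3 and -0.14 without WT replicate 3. LT-HSC markers were below 0 for 2 of 12 (median 0.05), with Procr at 0.10 (SE 0.12), Kit at 0.04 (SE 0.069), Ctnnal1 at 0.09 (SE 0.082) and Meis1 at 0.13 (SE 0.082). That count was 7 of 12 without Lxn-/- replicate 3, 6 without WT replicate 1, 1 without WT replicate 2 or 3, and 0 without Lxn-/- replicate 1.

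Genes most like the mean profile of the 8 probe sets over the 6 arrays were listed by Pearson's r. This is a description, ranked from 14033 candidate genes, so high r values among the first few carry little weight. Snai1, which encodes a repressor of epithelial genes, had r = 0.993, Lrpap1, a chaperone of lipoprotein receptors, r = 0.986, Cd1d2, a lipid-presenting relative of class I, r = 0.982, and Rab20, a small GTPase of endosomes and phagosomes, r = 0.974. The others of the first 10 were Dhrs7c, Olfr433, Zfp786, Echdc3, 1700030K09Rik and Pirt, with r from 0.970 to 0.991. Each of the 10 varied by 0.15 to 0.38 log2 units over the 6 arrays. After removal of the genotype means the first 5 were Kynu, Lrrc71, Adipor2, Bcl2l14 and Echdc3, with r from 0.995 to 0.996.

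The 2 patterns within the 8 probe sets had different nearest genes, in a description added after the values were seen. The mean of Cd74 and Ctss was lower in all Lxn-/- pools than in any WT pool. Genes lower in Lxn-/- therefore rank high for it by construction, and nothing about cell types is read from that ranking. For the mean of Cd74 and Ctss the nearest were Slamf7 (r = 0.987) of the plasma cell list and Pou2af1 (r = 0.982) of the B cell list, followed by Mfsd4a and St6gal1 (r = 0.980 each). For the mean of the 3 class II chains the nearest were Vsig8 (r = 0.999), Dusp13 (r = 0.989) and Kynu (r = 0.985), and the ninth was Psmb8 (r = 0.977), an immunoproteasome subunit gene of the class II region.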

How the data were processed

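Total RNA of 6 LT-HSC pools was labelled with biotin from 100 ng and hybridised to MoGene-1-0-st-v1 arrays, per the labels' protocols and the series' design text. The deposited values are log2 expression values after RMA normalization by the authors, as the series' design text states. The submitters' processing notes name RMA and Partek 6.0. Background step and probe set version were not stated. Values ran from 2.40 to 14.87 and array medians from 7.77 to 7.91, as for log2 RMA output. The number of arrays limits the precision.

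GEO's platform annotation paired 21789 of 35557 probe sets with 1 symbol and 1621 with several. All 23410 were tested with limma 3.58.1 in R 4.3.3 (lmFit and eBayes, no covariates, two-sided, Benjamini-Hochberg adjustment, threshold 0.05), as Lxn-/- minus WT on the log2 scale. Before use, the fit was tested on simulated data. Replicates were separate pools. SEs and p-values set each difference against the spread between pools, moderated by limma over all tested probe sets. A two-sided exact permutation test of 3 arrays against 3 cannot give a p below 0.1. Correlations over the 6 arrays were computed in numpy 2.4.6 as descriptions, with no test.

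The genes described, the lists and the tests were chosen with earlier results of these data known. Of 175 genes in 14 lists, 159 had a probe set of their own, and 8 more shared a probe set with other genes and were not counted. Named were all members, Lxn, the 3 genes of lowest p in each pathway list, the 2 in each marker list with a few defining markers, and the genes nearest in profile (10, and 5 after removal of genotype means) among genes with mean values above 6.93. Other named genes (H2-Oa, H2-Ob, H2-Ea, Nfyb, the RFX subunits and neighbours in the class II region) were chosen after their values were seen. Alternatives were other scalings, a filter on dim probe sets, array weights, another variance model, adjustment over all probe sets, a replicate block and leaving out single arrays. Promoters were aligned with Biopython 1.88.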

Additional observations from a re-analysis of the deposited data

How the results depend on the processing

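In limma, 0 probe sets passed an adjusted p of 0.05 with all arrays and under each of the 13 alternatives, including the fit with replicate numbers as a block, and the lowest adjusted p was 0.134, without WT replicate 2. At an unadjusted p under 0.05 there were 914 with all arrays and 1173 with the block, from 526 without dim probe sets to 1807 with array weights over the alternatives, and from 611 without Lxn-/- replicate 1 to 1556 without WT replicate 1 with 1 array removed. Over all 35557 probe sets there were 1597. The median difference of the described genes, -0.07 with all arrays, lay between -0.21 and 0.10 with 1 array removed, and the count of probe sets below 0, 6 of 8, ran from 2 to 8. Both were at their positive end without Lxn-/- replicate 2. Across the other alternatives the median stayed between -0.12 and -0.06 and the count between 6 and 8; the mean of all probe sets of a gene left 7 genes, because the shared H2-DMb probe set has several symbols. Cd74 and Ctss stayed below 0 under all 12 alternatives, from -0.50 to -0.32 and from -0.60 to -0.33. With single arrays left out this sign was fixed in advance, because the groups did not overlap, so it is no support. Of 95 recomputed differences of single genes, 0 moved by more than the SD between pools, but those of H2-DMb and Ciita changed sign under 6 alternatives each, that of H2-DMa under 2, and those of the 3 chains under 1 each. A common median moved the median of all probe sets to -0.06. The replicate numbers gave correlations of deviations of 0.37, -0.07 and -0.08, so they were not taken to pair the pools. Counts over gene lists without single arrays were chosen after seeing the data. The widest moves were those of the neutrophil and the T and NK cell lists.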
